A study of Mus musculus with 25 samples.

Results

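Salivary gland group 1 innate lymphoid cells (SG G1-ILCs) and ILC1s of the small intestinal lamina propria (LPL ILC1s) were compared by RNA sequencing of sorted cells. The comparison takes every library that the labels assign to these 2 groups, 2 of SG G1-ILCs and 4 of LPL ILC1s, which is 6 of the 25 libraries in the series, and it runs over all genes that passed a filter on low counts. The cells came from wild type C57BL/6 mice labelled as 8 weeks old. SG G1-ILCs were sorted from submandibular and sublingual glands as CD3- NK1.1+ NKp46+ cells that also carried CD49a and CD49b. LPL ILC1s were sorted as CD3- NK1.1+ NKp46+ cells that also carried CD27 and IL-7R, a different gate. Both tissues were cut up and digested with enzymes before sorting, and the gut was in addition freed of its epithelium, whereas liver and bone marrow of the other groups were dissociated without enzymes. Tissue, gate and tissue preparation therefore change together between the 2 groups and cannot be told apart. The other 6 groups were G1-ILCs of the fetal liver (FL G1-ILCs), IL-7R-negative and IL-7R-positive ILC1s and NK cells of the adult liver (AL 7R- ILC1s, AL 7R+ ILC1s, AL NK cells), and immature ILC1s and NK cells of the bone marrow (BM iILC1s, BM NK cells). They entered the fit for its estimate of the spread and are used below for levels. The labels give 2000 sorted cells, and the study's methods give another number. The study treats the libraries of a group as biological replicates but the labels do not say that they came from separate animals, so p-values measure the spread between these libraries.

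Group 1 ILCs are lymphocytes without rearranged antigen receptors that depend on the factor T-bet and can make interferon gamma. NK cells, which circulate and kill, also need Eomes, while tissue ILC1s stay in their organ, and their surface receptors and cytokines differ from organ to organ. ILC1s of the gut lie beside ILC2s and ILC3s and can share genes with them, among them *Il7r* and *Kit*. Group 1 ILCs of the salivary gland are known for carrying NK cell markers, among them Eomes, together with marks of residence such as CD49a and CD103, and for their dependence on TGF-beta signals.

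The libraries held between 3762158 and 4186256 counts in SG G1-ILCs and between 4343237 and 4999859 in LPL ILC1s. Levels are given as CPM, counts scaled to the library total after TMM adjustment, with the LPL libraries in the order of replicates 1 to 4 and the SG libraries in the order of replicates 1 and 2. The 2 SG libraries had a Pearson correlation of 0.970 on log2 CPM over genes, and the LPL libraries lay between 0.951 and 0.954 in pairs. *Il7r*, whose product gates the gut cells, stood at 786, 638, 764 and 724 CPM in LPL ILC1s and at 15.1 and 24.2 in SG G1-ILCs. *Itga1*, which encodes CD49a of the gland gate, stood at 76.0, 114, 115 and 96.2 and at 443 and 587 CPM. These genes follow the gates and are no independent result. *Cd27*, whose product also gates the gut cells, was not higher there, with 53.6, 47.7, 50.05 and 70.6 CPM in LPL ILC1s and 122 and 88.7 in SG G1-ILCs. *Klrb1c*, which encodes NK1.1, stood at 882, 882, 992 and 859 CPM in LPL ILC1s and at 1290.3 and 1061 in SG G1-ILCs, and *Ncr1*, which encodes NKp46, at 592, 655, 602 and 624 and at 507 and 495. Neither difference passed the test without 1 of the SG libraries (adjusted p = 0.0984 for *Klrb1c* without replicate 1 and 0.0527 for *Ncr1* without replicate 2, by edgeR). The defining receptor genes of group 1 ILCs were present in all 6 libraries, with log2 fold changes of 0.38 and -0.30.

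Markers of other cell types differed between the groups and are given before the results. Their counts stand beside 22.0% of all tested genes called higher in SG G1-ILCs and 20.2% called higher in LPL ILC1s. Of 16 tested myeloid markers of a list of 26, 15 were higher in SG G1-ILCs, and the summed level of the list was 4444 to 4732 CPM in SG G1-ILCs against 666 to 877 in LPL ILC1s. *Csf1r*, the macrophage growth factor receptor, stood at 130.4 and 134 CPM in SG G1-ILCs and at 0.291, 1.13, 0.5005 and 0.551 in LPL ILC1s, and the complement gene *C1qb* at 210.0 and 158 and at 0.582, 0, 0 and 0.276. *Apoe*, a macrophage and stromal gene chosen after its values were seen, reached 1356 and 1342 CPM in SG G1-ILCs and 0.874, 3.67, 3.50 and 1.93 in LPL ILC1s. The neutrophil genes *S100a8* and *S100a9* were at 0 counts in SG G1-ILCs. The 20 genes found of a salivary epithelium list summed to 2034 and 1043 CPM in the SG libraries and to 6.51 to 14.9 in the LPL libraries. This sum rested on *Car6*, a secreted carbonic anhydrase, with 771 and 348 CPM, *Pip*, a secreted glycoprotein, with 634 and 396, and *Prol1*, a secreted mucin-like protein, with 595 and 288, while *Bpifa2* and *Smr3a* were at 0 counts and 8 of the 20 genes had at most 3 counts over both SG libraries. *Mucl2*, a gland mucin-like gene chosen after its values were seen, was higher still, at 3503 and 1258 CPM. SG replicate 1 held more of these secretory transcripts than SG replicate 2. Of 15 tested T cell markers, 11 were higher in LPL ILC1s and 2 in SG G1-ILCs, and the list of 19 summed to 1979.6 to 2230.3 CPM in LPL ILC1s and 914 to 991 in SG G1-ILCs. *Cd3e*, a defining T cell gene whose call was lost by DESeq2 (adjusted p = 0.142), was at 8.15, 11.9, 21.5 and 25.4 CPM in LPL ILC1s and at 2.51 and 2.49 in SG G1-ILCs. The 2 markers higher in SG G1-ILCs were *Cd3g* and *Trdc*, with log2 fold changes of 1.66 and 1.90. The study names *Cd3g* as an ILC1 signature gene. In the samples of the other groups the T cell list summed to 1006 to 4182 CPM, and the LPL sums lay within that range. The B and plasma cell list of 16 summed to 1600.0 to 1641 CPM in SG G1-ILCs and 983 to 1186 in LPL ILC1s. Of 8 tested members, 3 were higher in SG G1-ILCs and 4 in LPL ILC1s. *Igkc* and *Jchain* were at 0 counts in the SG libraries although *Igha* stood there at 419 and 406 CPM. The 23 intestinal epithelium markers summed to 79.3 to 94.7 CPM in SG G1-ILCs and to 37.8 to 74.8 in LPL ILC1s, and of 4 tested 2 were higher in SG G1-ILCs and 0 in LPL ILC1s. Of the mast cell, the endothelial and stromal and the erythroid lists, 2 of 2, 2 of 4 and 1 of 1 tested genes were higher in LPL ILC1s and 0 in SG G1-ILCs. The erythroid sum, which rested on *Car2*, was 2981 to 3438 CPM in LPL ILC1s and 1143 to 1156 in SG G1-ILCs. In the samples of the other groups, the myeloid list summed to at most 1887 CPM and the salivary epithelium list to at most 8.21. The B and plasma cell, endothelial and stromal, and erythroid lists summed there to at most 956, 126 and 707 CPM. Every SG and LPL library lay above these last maxima. The mast cell and intestinal epithelium sums lay within the range of the other samples. The part of all these marker transcripts in the results below was not tested.

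**Figure D1:**
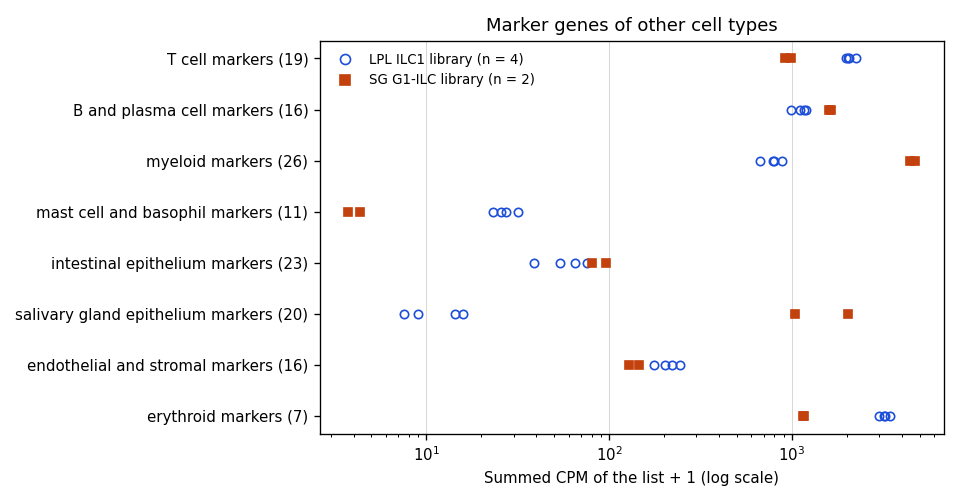
Summed level of each marker list in each library (horizontal axis, summed CPM plus 1 on a log scale; the number of genes found stands in brackets). Open circles are the 4 LPL ILC1 libraries and filled squares the 2 SG G1-ILC libraries. Myeloid and salivary gland markers lie higher in both SG libraries, and T cell markers in the LPL libraries. The erythroid list rests on *Car2*.

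The 2 populations differed across a large part of the expressed genes. Of 12050 genes tested, 2647 were called higher in SG G1-ILCs and 2433 higher in LPL ILC1s (edgeR's quasi-likelihood test, adjusted p below 0.05), which is 22.0% and 20.2% of the tested genes and 42.2% together. The log2 fold change exceeded 2 in 541 of the genes higher in SG G1-ILCs and in 636 of those higher in LPL ILC1s. Over all tested genes the median log2 fold change was 0.04. Among genes with a mean log2 CPM of at least 5 over the 6 libraries, 1731 were higher in LPL ILC1s and 1201 in SG G1-ILCs. This mean is taken over 4 LPL and 2 SG libraries, so genes higher in LPL ILC1s reach the cut more easily. These numbers therefore do not show a lean to 1 group. For 52.0% of the tested genes the SG and LPL libraries did not overlap. In bulk RNA a lower level in 1 group can come from fewer cells that express a gene or from less RNA per cell, which cannot be told apart. With 2 libraries against 4, an exact permutation test of a single gene cannot go below p = 0.0667, so each p below comes from edgeR, whose estimate of the spread is shared across genes and all 8 groups. Fitted on the 6 libraries alone, edgeR called 1741 genes higher in SG G1-ILCs and 2100 higher in LPL ILC1s.

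**Figure D2:**
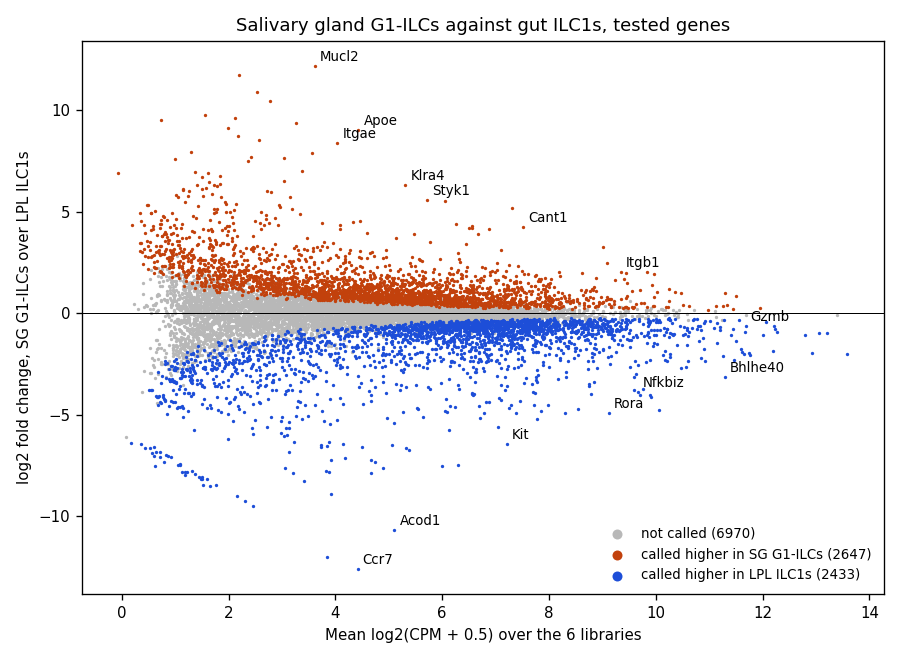
Mean level (horizontal axis, mean log2 of CPM plus 0.5 over the 6 libraries) and log2 fold change of SG G1-ILCs over LPL ILC1s (vertical axis) for each of the 12050 tested genes. Orange points were called higher in SG G1-ILCs, blue points higher in LPL ILC1s and grey points were not called. The lowest blue streak holds genes without a count in the SG libraries, whose fitted fold change depends on the prior count.

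The genes with high mean levels and the largest differences toward SG G1-ILCs included the Ly49 genes *Klra4* and *Klra8*, *Styk1*, *Sema4a* and *Cdh1*. Among called genes with a mean log2 CPM of at least 5 whose libraries did not overlap, the 15 with the largest log2 fold changes in each direction are named. The cut on the mean left out genes near 0 in the gut libraries, such as *Itgae* (log2 fold change 8.38), given below. The first of the 15 toward SG G1-ILCs was *Klra4* (ENSMUSG00000079852, chromosome 6 from 130043731 to 130067271 of GRCm38), a Ly49 receptor gene of NK cells. It had 756 and 737 CPM in SG G1-ILCs and 5.24, 8.18, 8.01 and 15.99 in LPL ILC1s. Its log2 fold change was 6.31 (standard error, SE, 0.23, adjusted p = 8.62e-17 by edgeR). *Styk1* (ENSMUSG00000032899, chromosome 6 from 131299142 to 131353597), which encodes a receptor-like pseudokinase, stood at 692 and 679.6 CPM in SG G1-ILCs and at 19.5, 10.2, 15.01 and 12.7 in LPL ILC1s, a log2 fold change of 5.58 (SE 0.21, adjusted p = 1.52e-16 by edgeR). *Cant1* (ENSMUSG00000025575, chromosome 11 from 118406289 to 118419086), a nucleotidase that cleaves extracellular and Golgi nucleotides, was counted at 1291 and 1339 CPM in the gland against 65.8, 90.9, 62.8 and 57.6 in the gut, a log2 fold change of 4.25 (SE 0.13, adjusted p = 8.46e-18 by edgeR). *Cdh1* (ENSMUSG00000000303, chromosome 8 from 106603351 to 106670246), which encodes the adhesion protein E-cadherin, stood at 775 and 909 CPM in SG G1-ILCs and at 33.5, 73.7, 29.5 and 49.1 in LPL ILC1s, a log2 fold change of 4.18 (SE 0.32, adjusted p = 7.20e-11 by edgeR). *Cdh1* is also an epithelial gene. The salivary epithelium sum given above was higher in the same libraries. Of that list *Aqp5* was also called higher in SG G1-ILCs (4.74 on the log2 scale), while *Egf* was not called (-0.25). Of the intestinal epithelium list, *Lgals4* and *Cdh17* were called higher in SG G1-ILCs (log2 fold changes of 1.65 and 2.14). The value of *Cdh17* was 1.68 without SG replicate 1, and its call was lost by DESeq2 (adjusted p = 0.184). *Krt18* of that list was not called (-0.37). *Epcam* was not called either, at 22.1 and 25.9 CPM in SG G1-ILCs and 31.7, 33.3, 24.5 and 14.6 in LPL ILC1s. The part of epithelial transcripts in the level of *Cdh1* was not tested.

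The other genes of this set had log2 fold changes between 3.44 and 5.52. *Spsb1* stood at 617 and 791 CPM in SG G1-ILCs and 49.8, 36.4, 24.3 and 31.7 in LPL ILC1s, and *Ldlrad4* at 697 and 583 and 42.5, 39.2, 29.0 and 27.0. Both products are known to restrain TGF-beta signalling. *Sema4a* and *Sema6d*, which encode membrane semaphorins, had log2 fold changes of 4.41 and 3.44. *Gne*, the enzyme that starts sialic acid synthesis, was higher by 3.90 and the nuclear regulator *Irf2bpl* by 3.51 on the same scale. The uncharacterised *1700017B05Rik* had 4.21, and the remaining members were the Ly49 genes *Klra8*, *Klra9*, *Klra3* and *Klra13-ps*, described with their family.

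The 15 genes named toward LPL ILC1s included *Acod1*, *Kit*, *Rora* and *Ramp3*. *Acod1*, which makes the metabolite itaconate and is best known from activated macrophages, had 204, 251, 326 and 255 CPM in LPL ILC1s and 1 count in both SG libraries together. That is a ratio of 1986 (95% exact interval 356 to 78476, which covers counting error only). Its fitted log2 fold change, which depends on the prior count, was -10.69 and ran from -13.34 without SG replicate 1 to -9.73 without replicate 2. *Kit* (ENSMUSG00000005672, chromosome 5 from 75574916 to 75656722), the stem cell factor receptor, stood at 727, 640.0, 617 and 592 CPM in LPL ILC1s and at 7.82 and 6.98 in SG G1-ILCs, a log2 fold change of -6.44 (SE 0.57, adjusted p = 9.48e-10 by edgeR). *Rora* (ENSMUSG00000032238, chromosome 9 from 68653786 to 69388246), a nuclear receptor that ILC2s and ILC3s need, was counted at 1984, 1734, 1454 and 1739.9 CPM in LPL ILC1s and 50.5 and 65.3 in SG G1-ILCs (-4.89 on the log2 scale, SE 0.23, adjusted p = 4.34e-15 by edgeR). *Ramp3*, a partner of the receptors for calcitonin-family peptides, stood at 177, 194, 163 and 192 CPM in the gut and 2.23 and 1.25 in the gland, with a log2 fold change of -6.70 (SE 0.43, adjusted p = 6.59e-11 by edgeR).

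*Plac8* and *Gm19590* rested on few counts in the gland, so that their log2 fold changes of -7.53 and -6.46 moved to -6.94 and -5.66 without SG replicate 2 and to -8.41 and -8.09 without replicate 1. The growth factor gene *Areg* and the cytokine gene *Csf2* belonged to the same set, as did *Il7r*, which follows the gate. *Plac8* stood at 380.4, 294, 264 and 449.6 CPM in LPL ILC1s and 2.79 and 0.997 in SG G1-ILCs, and the protease inhibitor gene *Serpinb1a* at 617, 487, 279.5 and 337 and 3.07 and 1.75. *Gjb2*, which encodes a gap junction protein, had a log2 fold change of -6.65, and the glycosyltransferase genes *Gcnt2* and *St6galnac3* had -5.59 and -5.08. The predicted genes *Gm19590*, *Gm29112* and *Gm26740* completed it, the last at -5.16 and *Gm29112* at -5.39, or -6.10 without SG replicate 2.

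**Figure D3:**
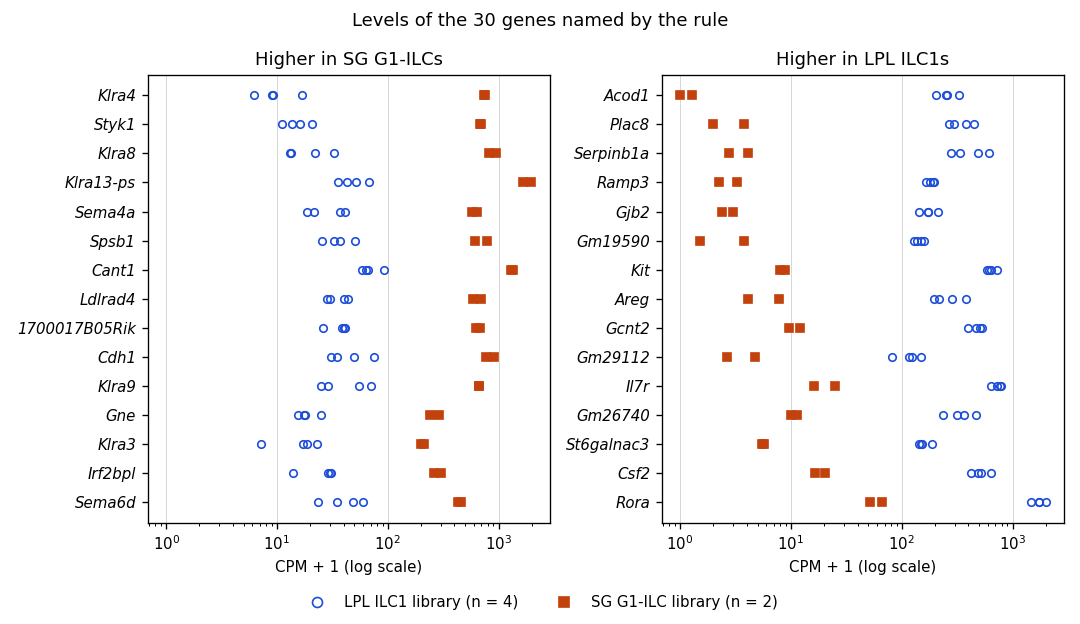
Level of the 15 genes named in each direction (horizontal axis, CPM plus 1 on a log scale) in each library. Filled squares are the 2 SG G1-ILC libraries and open circles the 4 LPL ILC1 libraries. The genes were chosen as ones whose groups do not overlap, so the gap between the symbols is fixed by the choice.

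The levels of these genes in the 6 other groups are a description with no test. The genes were chosen for large gaps between SG G1-ILCs and LPL ILC1s, which in part sets how they stand against other samples. The same counts were not made over all tested genes, so those below do not mark genes as particular to a tissue. Of the 15 genes higher in SG G1-ILCs, 10 were lower in each of the 18 other samples than in either SG library, and of the 15 genes higher in LPL ILC1s, 14 were lower in each of the 18 than in any LPL library. *Spsb1*, *Ldlrad4* and *Cdh1* were of the SG kind, with *Spsb1* at a mean of 0.0482 CPM in the fetal liver and 0.868 in BM iILC1s, the lowest and the highest of the 6 groups. *Klra4*, *Klra8*, *Klra13-ps* and *Klra3* also reached high levels in NK cells, with *Klra8* at 1006 CPM in BM NK cells and 1257 in AL NK cells. For *Styk1*, *Sema4a*, *Gne* and *Irf2bpl* each of the 18 other samples lay above every LPL library, and for *Cant1* 17 of the 18 did. *Sema4a* stood at 35.8, 20.6, 40.0 and 17.6 CPM in the LPL libraries and lay between means of 315 and 692 CPM in the 6 other groups. *Ramp3* and *Areg* had means under 1 CPM in all 6 other groups, and the exception among the genes of the gut was *Il7r*, which reached 1134 CPM in BM iILC1s.

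**Figure D4:**
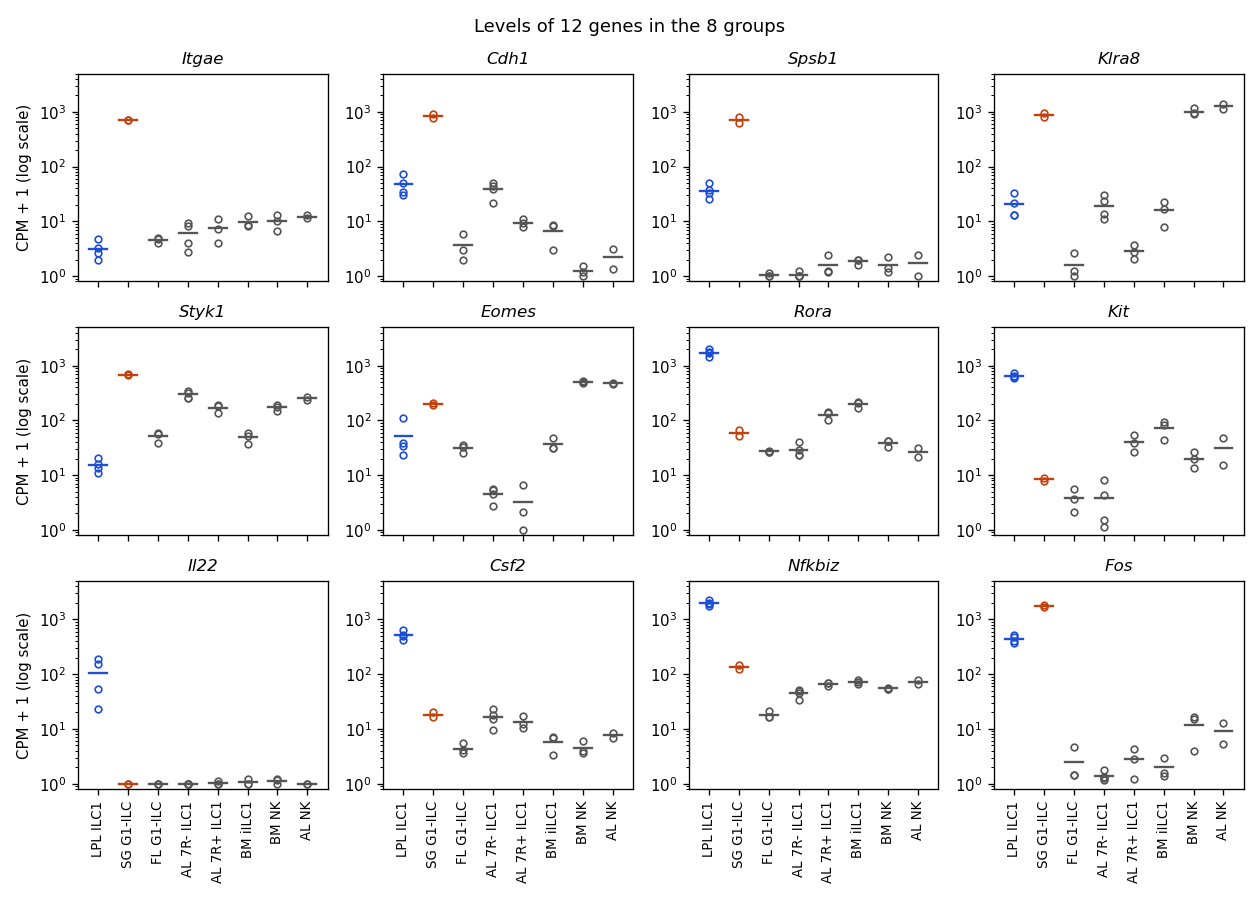
Level of 12 genes (vertical axis, CPM plus 1 on a log scale) in the samples of all 8 groups, with a short line at the mean. *Itgae*, *Cdh1* and *Spsb1* stand highest in SG G1-ILCs, *Klra8* in SG G1-ILCs and NK cells, and *Rora*, *Kit*, *Il22*, *Csf2* and *Nfkbiz* in LPL ILC1s.

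Most transcription factors tested were lower in SG G1-ILCs, while *Eomes* and *Zfp683* were higher. Of 30 factors tested, 20 were higher in LPL ILC1s and 5 in SG G1-ILCs, against 20.2% and 22.0% of all genes, and their median log2 fold change was -1.32. *Eomes*, which NK cells need, stood at 189 and 206 CPM in SG G1-ILCs and at 37.0, 33.3, 22.8 and 111 in LPL ILC1s, with LPL replicate 4 above the other 3. Its log2 fold change was 1.96 (SE 0.38, adjusted p = 1.67e-04 by edgeR), and 2.68 without LPL replicate 4. *Zfp683*, which encodes the residence factor Hobit, was also higher, with 61.2 and 42.9 CPM in SG G1-ILCs and 11.9, 14.4, 14.5 and 7.99 in LPL ILC1s (2.08 on the log2 scale). *Runx3*, *Tox* and *Id3* were higher by 0.70, 0.76 and 1.77, the last with an adjusted p of 0.051 without LPL replicate 3 and of 0.138 without SG replicate 2 by edgeR. *Prdm1*, which encodes Blimp-1, a factor often paired with Hobit, went the other way, with 37.9, 29.9, 35.3 and 27.6 CPM in LPL ILC1s and 6.70 and 8.48 in SG G1-ILCs. *Tbx21*, which encodes T-bet, was counted at 1593, 1449, 1366 and 1401 CPM in LPL ILC1s and 675 and 725 in SG G1-ILCs (-1.05, SE 0.09, adjusted p = 9.40e-10 by edgeR). The SG values lay within the range of the means of the 6 other groups, from 600.0 to 989 CPM.

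*Id2*, the repressor that marks the ILC lineage, stood at 4990.2, 4496, 4852 and 5077 CPM in LPL ILC1s and at 1231 and 1368 in SG G1-ILCs, lower than the means of all 6 other groups, which began at 2634 CPM in AL NK cells. *Tcf7*, which encodes the progenitor factor TCF-1, was 366, 354, 331 and 326 CPM against 24.3 and 26.7, a log2 fold change of -3.75 (SE 0.23, adjusted p = 6.90e-13 by edgeR). *Ikzf2*, which encodes Helios, had -4.52 and *Bhlhe40*, a factor of cytokine-producing lymphocytes, -3.12. Smaller differences in the same direction were called for *Maf* (-2.39, or -2.98 without SG replicate 1), *Gata3* (-1.45), *Ahr* (-1.58) and *Ets1* (-1.08). *Ikzf3* and *Hic1* did not pass the test, and *Irf8*, *Zeb2* and *Nr4a2*, at -0.34, 0.77 and 0.61, passed under some alternatives, among them *Zeb2* at 1.10 without LPL replicate 4 (adjusted p = 0.0117) and *Irf8* at -0.54 without SG replicate 2 (adjusted p = 0.0246), both by edgeR.

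Receptors of NK cells were mostly higher in SG G1-ILCs. Of 36 tested, 22 were higher in SG G1-ILCs and 11 in LPL ILC1s, against 22.0% and 20.2% of all genes. *Klra8*, which encodes the activating Ly49H receptor, stood at 953 and 817 CPM in SG G1-ILCs and 12.2, 20.9, 12.3 and 32.0 in LPL ILC1s, a log2 fold change of 5.52 (SE 0.33, adjusted p = 4.18e-13 by edgeR). *Klra10*, *Klra2*, *Klra9*, *Klra3*, *Klra7* and *Klra1* were also higher, with 5.001 (5.97 without LPL replicate 4), 4.12, 3.92, 3.72, 3.14 and 2.74, as was the pseudogene *Klra13-ps* with 5.22, while *Klra5*, at 33.5 and 13.2 and 11.4, 13.5, 19.0 and 15.2 CPM, did not pass and changed sign from 0.63 to -0.17 without SG replicate 1. The Ly49 genes lie side by side and are close copies, so the counting could have divided reads between them, and values of single genes are uncertain. Their promoter windows, from 250 bases before to 50 after the start (RefSeq, GRCm38.p6), were alike to different degrees. The *Klra4* window is printed under the *Klra8* window because these are the members with the largest fold changes, and the capitals in it mark the 41 bases that differ from or do not align to *Klra8* (86.3% of its 300 bases were identical). Both lie on the minus strand. Of the windows compared this was the closest to that of *Klra8*, and those of *Klra9*, *Klra3*, *Klra10* and *Klra1* shared 64.7%, 61.0%, 49.0% and 46.0% with it. *Klra7* had windows 1 and 2, which shared 49.7% and 77.0%.
*Klra8*, chr6:130129849-130130148: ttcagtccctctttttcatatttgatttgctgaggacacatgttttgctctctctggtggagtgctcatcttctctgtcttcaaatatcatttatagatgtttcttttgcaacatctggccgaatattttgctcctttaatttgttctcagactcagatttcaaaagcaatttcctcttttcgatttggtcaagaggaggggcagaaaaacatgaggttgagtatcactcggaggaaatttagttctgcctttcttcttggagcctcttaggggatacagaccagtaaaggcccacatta
*Klra4*, chr6:130067222-130067521: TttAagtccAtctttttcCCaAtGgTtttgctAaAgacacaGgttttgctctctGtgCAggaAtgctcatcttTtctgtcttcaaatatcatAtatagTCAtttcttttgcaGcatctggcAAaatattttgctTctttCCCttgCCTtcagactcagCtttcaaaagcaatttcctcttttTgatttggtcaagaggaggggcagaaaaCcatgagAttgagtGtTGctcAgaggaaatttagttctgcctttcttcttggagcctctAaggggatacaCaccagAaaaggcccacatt

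The other NK receptor genes were called in both directions. The adaptors *Tyrobp* and *Fcer1g* carry the signal of activating receptors. In SG G1-ILCs they stood at 1427 and 1114 and at 2341 and 1976 CPM. In LPL ILC1s they stood at 543, 526, 661 and 589 and at 1002, 1068, 1031 and 979. The myeloid markers given above moved the same way, and their part in these levels was not tested. *Cd7*, a surface protein of T and NK cells, was counted at 2649 and 2103 CPM against 489, 474, 737 and 617, and the inhibitory receptor gene *Tigit* at 289 and 289 against 76.3, 57.6, 78.8 and 96.5. The partners *Klrd1* (CD94) and *Klrc1* (NKG2A), which form 1 inhibitory receptor, went in opposite directions. *Klrd1* stood at 836 and 746 CPM in SG G1-ILCs and 357, 291, 341 and 372 in LPL ILC1s (1.22 on the log2 scale), and *Klrc1* at 417 and 378 and 2149.7, 1968, 2156 and 1892 (-2.36). *Klrb1b* and *Cd160*, which encode receptors of NK cells, were higher in LPL ILC1s, with log2 fold changes of -2.37 and -2.20. *Klrk1*, which encodes NKG2D, had a smaller log2 fold change of -0.46 (SE 0.07, adjusted p = 6.32e-06 by edgeR).

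Genes of residence and homing were called in both directions, and *Itgae* stood out among them. Of 19 tested genes for integrins, residence and tissue exit, 7 were higher in SG G1-ILCs and 8 in LPL ILC1s, against 22.0% and 20.2% of all genes, with a median log2 fold change of -0.17. *Itgae* (ENSMUSG00000005947, chromosome 11 from 73090583 to 73147446), which encodes CD103, the integrin that binds E-cadherin, stood at 719.6 and 712 CPM in SG G1-ILCs and at 3.79, 1.69, 1.00 and 2.21 in LPL ILC1s. With a log2 fold change of 8.38 (SE 0.39, adjusted p = 4.34e-15 by edgeR) it was the list's largest difference toward SG G1-ILCs, and the means of the 6 other groups did not exceed 11.2 CPM. Its partner chain *Itgb7* did not pass the test, with 457 and 510.1 CPM in SG G1-ILCs and 585, 479, 582 and 524 in LPL ILC1s. *Itgb1*, the partner of CD49a and CD49b, was 1644 and 1691 CPM against 392, 398, 406 and 437 (2.03 on the log2 scale). *Itgb3* went the other way, with 429.9, 347, 353 and 362 CPM in LPL ILC1s and 14.2 and 24.2 in SG G1-ILCs, as did the residence marker *Cd69*, with 1254, 1498, 1524 and 1522 and 505 and 437. *Ccr7*, the receptor for exit to lymph nodes, had 225, 87.5, 82.8 and 229.9 CPM in LPL ILC1s and no count in either SG library, which is at least 389-fold higher against a limit of 3 counts over both SG libraries.

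Of 16 tested chemokine and gut homing receptors, 12 were higher in LPL ILC1s and 4 in SG G1-ILCs, against 20.2% and 22.0% of all genes, and by DESeq2 2 were higher in SG G1-ILCs. *Cxcr6*, which holds lymphocytes in liver and gut, stood at 2777, 2981, 1661 and 2799 CPM in LPL ILC1s and at 179 and 115 in SG G1-ILCs, a log2 fold change of -4.12 (SE 0.24, adjusted p = 2.76e-13 by edgeR). *Ccr9*, the receptor that directs lymphocytes to the small intestine, was 62.0, 61.0, 31.3 and 64.2 CPM against 0.558 and 0.748, and *Gpr183*, a receptor for oxysterols, 364, 323, 317 and 287 against 44.1 and 65.6. *Cx3cr1* was the largest difference toward SG G1-ILCs, at 13.4 and 27.9 CPM against 0, 0.282, 0.250 and 0.551, where few counts in the gut make its log2 fold change of 6.12 uncertain (5.49 without SG replicate 2). *Cx3cr1* is also a macrophage gene, and the myeloid markers given above moved the same way.

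Genes of the TGF-beta pathway were called in both directions. TGF-beta binds the receptors TGFBR2 and TGFBR1, which phosphorylate SMAD2 and SMAD3 to act with SMAD4, and SMAD7, SKI and PMEPA1 hold the signal back. Of 23 tested, 7 were higher in SG G1-ILCs and 7 in LPL ILC1s, against 22.0% and 20.2% of all genes, and the median log2 fold change was -0.14. Without SG replicate 1, 3 were higher in LPL ILC1s. Among receptors, *Tgfbr1* stood at 108 and 143 CPM in SG G1-ILCs and 26.8, 20.04, 25.3 and 27.6 in LPL ILC1s (2.33 on the log2 scale, SE 0.22, adjusted p = 2.31e-09 by edgeR). *Tgfbr2* was 274 and 328 CPM against 162, 149.8, 124 and 143, and the co-receptor *Tgfbr3* 35.7 and 35.4 against 1.16, 0.847, 0.5005 and 0.551. The ligand gene *Tgfb1* was higher as well, with 148 and 169 CPM in SG G1-ILCs and 31.7, 38.7, 33.3 and 34.5 in LPL ILC1s. The myeloid markers given above moved the same way, and the part of myeloid transcripts in *Tgfb1* and *Tgfbr1* was not tested. The restraining genes *Ski*, *Pmepa1* and *Smad7* had log2 fold changes of 1.63, 1.42 and 0.82, and *Ldlrad4* and *Spsb1*, outside this list, are given above. Not all restraining genes of the list rose. *Tgif1* was called toward LPL ILC1s at -1.53 (adjusted p = 2.90e-08 by edgeR), and *Skil*, *Bambi* and *Tgif2* were not called. The signal carriers did not follow the receptors, with *Smad3* at 74.8 and 87.5 CPM in SG G1-ILCs and 180.0, 196, 198 and 130.4 in LPL ILC1s, *Smad2* not called at -0.40 and *Smad4* called at -0.65. The calls of *Smad4* and *Smad7* were lost without SG replicate 1 (adjusted p = 0.114 and 0.11 by edgeR), that of *Smad4* also under other alternatives, among them without LPL replicates 3 or 4, without SG replicate 2 (adjusted p = 0.181 by edgeR) and on the 6 libraries alone. *Furin*, the protease that matures TGF-beta, was 531, 518, 287 and 499.7 CPM in LPL ILC1s and 52.2 and 58.1 in SG G1-ILCs.

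Cytokine receptors were mostly higher in LPL ILC1s. Of 27 tested, 15 were higher there and 5 in SG G1-ILCs, against 20.2% and 22.0% of all genes, with a median log2 fold change of -1.04, and 3 were higher in SG G1-ILCs without SG replicate 2. The 3 genes of the IL-2 receptor did not move together. *Il2ra*, the high-affinity chain, stood at 316, 341, 269 and 346 CPM in LPL ILC1s and 17.3 and 14.0 in SG G1-ILCs. *Il2rg*, the common gamma chain, was 1976, 2066, 2119.9 and 1927 against 1008 and 868 CPM, whereas *Il2rb*, shared by the receptors for IL-2 and IL-15, was higher in SG G1-ILCs, at 4098 and 4452 against 2537, 2330.3, 2200.3 and 2449. These differences were -4.35, -1.11 and 0.85 on the log2 scale, with adjusted p-values of 4.04e-12, 1.17e-11 and 5.55e-10 by edgeR. The receptor chains for IL-18, a cytokine that drives interferon gamma, were both lower in SG G1-ILCs, with *Il18r1* at 249.9, 199, 143 and 210.3 CPM in LPL ILC1s and 7.82 and 9.22 in SG G1-ILCs and *Il18rap* at 529, 527, 454 and 614 and 26.8 and 43.9. The IL-12 receptor genes *Il12rb1* and *Il12rb2* had -1.77 and -1.77. *Il10ra*, *Ifnar2*, *Il6ra* and *Ifngr2* were the other receptors called higher in SG G1-ILCs, with log2 fold changes of 1.48, 0.82, 2.71 and 2.63, but *Il6ra* lost its call without SG replicate 2 (2.09, adjusted p = 0.151 by edgeR) and *Ifngr2* without it, without LPL replicate 3 or 4, and by DESeq2 (adjusted p = 0.0681). The part of myeloid transcripts in the level of *Il10ra* was not tested. *Il21r* did not pass the test at 1024 and 1227 CPM in SG G1-ILCs and 1081, 1055, 1229 and 1387 in LPL ILC1s.

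Cytokine and chemokine genes that were called were mostly higher in LPL ILC1s, 13 of 28 tested against 2 higher in SG G1-ILCs, where all genes gave 20.2% and 22.0%. *Il22*, a cytokine of ILC3s that acts on epithelium, stood at 156, 189, 22.5 and 52.9 CPM in LPL ILC1s, with replicates 1 and 2 above 3 and 4, and had no count in the SG libraries. That is at least 258-fold higher against a limit of 3 counts. *Csf2*, which encodes GM-CSF, was 489.6, 421, 523 and 634 CPM against 19.3 and 15.5 (-4.90 on the log2 scale, SE 0.32, adjusted p = 2.78e-12 by edgeR), and *Areg*, the epithelial growth factor amphiregulin, 194, 217, 383 and 286 against 3.07 and 6.73. *Ifng*, the interferon that defines group 1 ILCs, stood at 299, 435, 645 and 558 CPM in LPL ILC1s and 68.1 and 86.0 in SG G1-ILCs, a log2 fold change of -2.65 (SE 0.26, adjusted p = 5.95e-09 by edgeR). The chemokine genes *Ccl3*, *Ccl4* and *Ccl5* had -3.78, -2.21 and -1.37, and *Tnfsf14*, which encodes LIGHT, -4.64. *Tnfsf11*, which encodes RANKL, had 59.7, 51.1, 56.3 and 85.2 CPM in LPL ILC1s and 2 counts over both SG libraries, a ratio of 239 (95% exact counting interval 66.0 to 1978). Its fitted value on the log2 scale was -7.76, and -11.30 or -6.76 without SG replicate 1 or 2. *Tnf* did not pass the test, with 17.8, 24.8, 15.8 and 22.9 CPM in LPL ILC1s and 7.82 and 17.7 in SG G1-ILCs. The genes higher in SG G1-ILCs were *Cxcl16*, the ligand of CXCR6, with 58.9 and 62.6 CPM against 9.32, 14.96, 8.51 and 9.37 (2.53 on the log2 scale), and *Tnfsf8*, which encodes CD30 ligand, at 25.1 and 23.9 against 18.1, 13.5, 2.25 and 9.65 CPM. The call of *Tnfsf8* was lost under several alternatives, among them without SG replicate 1, SG replicate 2, LPL replicate 3 or LPL replicate 4, on the 6 libraries alone and by DESeq2, with an adjusted p of up to 0.123 by edgeR. *Cxcl16* is also made by macrophages, whose markers moved with it.

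Genes of the cytotoxic granule were called in both directions. Of 20 tested genes, 10 were higher in LPL ILC1s and 5 in SG G1-ILCs, against 20.2% and 22.0% of all genes, with a median log2 fold change of -0.36. *Gzmb*, which encodes granzyme B, stood at 2699.5, 3515, 5342 and 3849 CPM in LPL ILC1s and 2738 and 2355 in SG G1-ILCs, and *Gzma* at 1367, 2074, 2289 and 2186 and 1369 and 1017. Both were called lower in SG G1-ILCs, with log2 fold changes of -0.60 and -0.73, while their libraries overlapped. Neither call held by DESeq2 (adjusted p = 0.418 and 0.398) or without SG replicate 2 (adjusted p = 0.147 and 0.109 by edgeR), and that of *Gzmb* was also lost without LPL replicate 3 (adjusted p = 0.0598 by edgeR). *Prf1*, the pore-forming perforin, did not pass the test, with 723, 765, 959 and 874 CPM in LPL ILC1s and 642 and 746 in SG G1-ILCs. *Tnfsf10*, which encodes the death ligand TRAIL, was higher in SG G1-ILCs at 169 and 207 CPM against 25.9, 71.1, 49.3 and 47.7 (1.95, SE 0.21, adjusted p = 3.54e-08 by edgeR), and the granule protease *Ctsw* by 1.04. Among those higher in LPL ILC1s were *Stx11*, a granule fusion gene, at 384, 453, 348 and 465 CPM against 33.5 and 42.1, the serpin genes *Serpinb9b* and *Serpinb6b*, with log2 fold changes of -2.76 and -2.29, and the granzyme B inhibitor *Serpinb9* at 4617, 4597, 4704 and 5217 against 881 and 1095. The value of *Serpinb9b* rested on few counts in the gland, with -8.34 without SG replicate 2 and -1.84 without replicate 1, where its call was lost (adjusted p = 0.12 by edgeR).

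Costimulatory and checkpoint genes leaned to LPL ILC1s, 17 of 25 tested against 4 (all genes 20.2% and 22.0%), with a median log2 fold change of -1.58. *Icos*, a costimulatory receptor, stood at 463, 415, 414 and 465 CPM in LPL ILC1s and 16.8 and 22.2 in SG G1-ILCs, and the inhibitory receptor gene *Ctla4* at 205, 212, 206 and 169 and 8.10 and 5.98. *Tnfrsf25*, the receptor for TL1A, was 127, 139.7, 130.1 and 86.6 CPM against 0.279 and 1.25, and *P2rx7*, a receptor for extracellular ATP, 67.9, 127, 89.3 and 113 against 3.07 and 2.49. The 4 differences were -4.49, -4.82, -7.22 and -5.15 on the log2 scale (adjusted p = 1.39e-15, 3.61e-09, 1.53e-11 and 1.55e-10 by edgeR). That of *Tnfrsf25* rested on few counts in the gland and ran from -6.57 without SG replicate 1 to -8.63 without replicate 2. *Havcr2*, which encodes the checkpoint TIM-3, was higher in SG G1-ILCs, at 18.4 and 21.7 CPM against 0.582, 0, 0.250 and 0.551. It is also expressed by myeloid cells, whose markers moved with it.

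Genes of ILC3s and ILC2s were mostly higher in LPL ILC1s. Of 12 tested ILC3 genes of a list of 16, 10 were higher in LPL ILC1s against 20.2% of all genes, with a median log2 fold change of -3.32, and the list summed to 1425 to 1818 CPM in LPL ILC1s and 172 to 189 in SG G1-ILCs. *Tmem176b*, an ILC3-associated membrane protein, stood at 432, 482, 516 and 355 CPM in LPL ILC1s and 56.1 and 47.4 in SG G1-ILCs, and the IL-23 receptor gene *Il23r* at 24.8, 31.9, 9.51 and 15.4 and 0 and 0.748, which is a ratio of 50.6 (95% exact counting interval 17.1 to 247). For *Il23r* the fitted log2 value was -5.62, -4.72 without SG replicate 1 and -9.67 without replicate 2. The ILC3 cytokine gene *Il17a* had at most 0.291 CPM in any of the 6 libraries. The exception among the called genes was *Nrp1*, with 27.4 and 23.9 CPM in SG G1-ILCs and 5.82, 0, 3.25 and 3.03 in LPL ILC1s. The part of myeloid transcripts in its level was not tested. Of 10 tested ILC2 genes of a list of 15, 6 were higher in LPL ILC1s and 1, *Ccr8*, in SG G1-ILCs. *Ccr8* stood at 22.6 and 10.7 CPM in SG G1-ILCs and 2.33, 0.847, 3.00 and 9.65 in LPL ILC1s, and its call was lost without SG replicate 1 (adjusted p = 0.164 by edgeR) and by DESeq2 (adjusted p = 0.144), while its log2 fold change of 2.06 became 1.43 without SG replicate 1 and 2.99 without LPL replicate 4. The ILC2 cytokine genes *Il5* and *Il13* did not reach 1 CPM in any library. The part of a few ILC3s or ILC2s among the sorted gut cells was not tested.

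**Figure D5:**
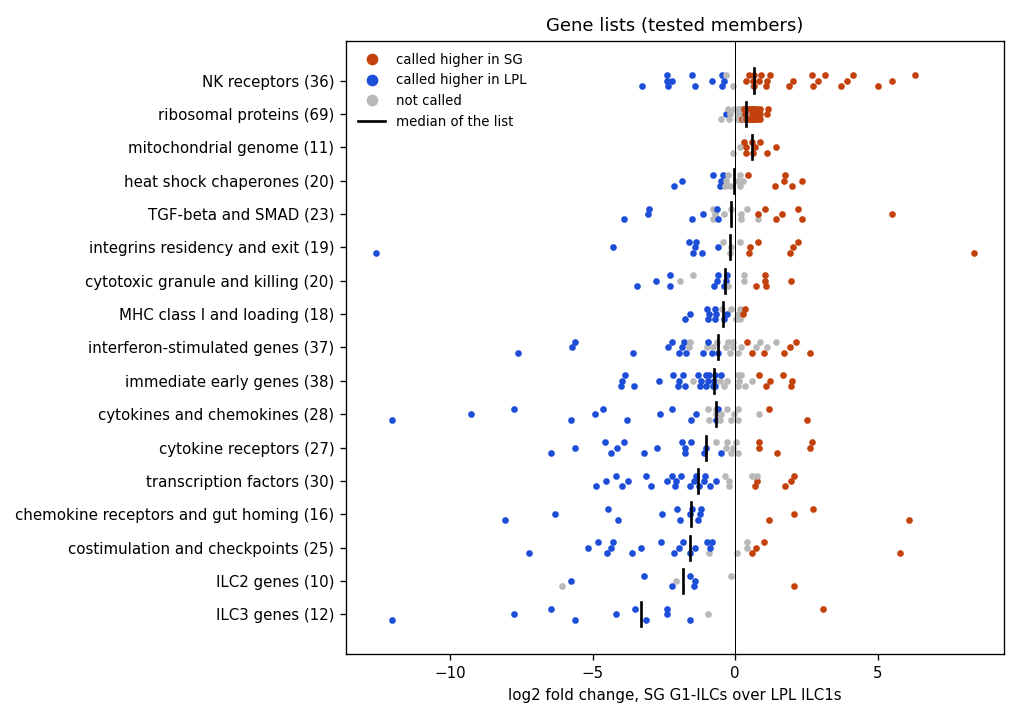
Log2 fold change of SG G1-ILCs over LPL ILC1s (horizontal axis) for each tested member of 17 gene lists, with the number tested in brackets and a black line at each list's median. Orange points were called higher in SG G1-ILCs, blue points higher in LPL ILC1s and grey points were not called. The medians lie lowest for ILC3 genes and highest for NK receptors among these lists.

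Activation genes that respond within minutes to an hour of a stimulus were called in both directions. Tissue digestion can induce these genes, and their sum stood between 51109.9 and 57400.0 CPM in LPL ILC1s, between 27197 and 29361 in SG G1-ILCs, and at most at 4789.7 in the other 18 samples, whose tissues were not digested. The part of digestion in these levels was not tested. Of 38 tested, 22 were higher in LPL ILC1s and 6 in SG G1-ILCs, against 20.2% and 22.0% of all genes. *Fos*, a subunit of AP-1, stood at 1805 and 1706 CPM in SG G1-ILCs and 470.1, 528, 403 and 367 in LPL ILC1s (1.99 on the log2 scale, SE 0.28, adjusted p = 2.78e-06 by edgeR). *Dusp2*, *Egr1*, *Egr2*, *Zfp36* and *Mcl1* were higher in SG G1-ILCs as well, by 1.97, 1.22, 1.68, 0.83 and 1.08. By DESeq2 the calls of *Fos* and *Egr1* were lost (adjusted p = 0.0917 and 0.115), and without SG replicate 1 those of *Egr1* and *Egr2* (adjusted p = 0.166 and 0.0502 by edgeR), the latter also without SG replicate 2 (adjusted p = 0.0819 by edgeR). *Jun*, *Fosb*, *Ier2* and *Dusp1* did not pass the test, with *Jun* at 1286 and 1160.0 CPM in SG G1-ILCs and 1088, 1053, 1120.3 and 999.8 in LPL ILC1s.

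Among the genes higher in LPL ILC1s was *Myc*, the growth regulator, at 1831, 1951, 2425 and 2288 CPM against 122 and 141 in SG G1-ILCs (-4.01 on the log2 scale, SE 0.17, adjusted p = 5.72e-16 by edgeR). *Dusp4*, a phosphatase gene that restrains MAP kinases, had a log2 fold change of -3.53. *Nfkbiz*, *Nfkbia* and *Tnfaip3* are known as genes that NF-kappaB induces and whose products act back on it. *Nfkbiz* stood at 1792, 2237, 1915 and 1979 CPM in LPL ILC1s and 124 and 148 in SG G1-ILCs, *Nfkbia* at 2417, 2819, 2943 and 2452 and 409 and 420.1, and *Tnfaip3* at 4883, 5763, 5670.5 and 5317 and 1259 and 1509. *Gadd45b* and *Nfkbid* had log2 fold changes of -3.97 and -2.16. *Nr4a1*, a target of antigen receptor and calcium signals, was 4790.4, 5227, 5713 and 4642 CPM against 1248 and 1310.1 (-1.99 on the log2 scale), a call lost by DESeq2 (adjusted p = 0.0699). Outside the list, and chosen after their values were seen, the survival gene *Bcl2a1d* and the kinase gene *Pim1* were 443, 450.4, 427 and 467 and 1047, 1145, 1069 and 1161 CPM in LPL ILC1s against 15.1 and 19.9 and 38.5 and 45.1 in SG G1-ILCs.

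The promoters of *Nfkbia* and *Tnfaip3* are shown because their genes moved together and are textbook NF-kappaB targets. The windows run from 250 bases before to 50 after the start (RefSeq, GRCm38.p6, minus strand), and the capitals mark matches to GGGNNNTTCC, a common form of the NF-kappaB site, on either strand.
*Nfkbia*, chr12:55492598-55492897: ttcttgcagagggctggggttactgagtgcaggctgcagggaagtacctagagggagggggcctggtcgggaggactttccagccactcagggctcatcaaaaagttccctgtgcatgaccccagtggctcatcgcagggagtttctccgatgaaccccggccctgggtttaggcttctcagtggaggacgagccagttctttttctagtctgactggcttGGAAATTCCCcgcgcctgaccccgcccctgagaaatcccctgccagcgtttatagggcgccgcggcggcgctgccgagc
*Tnfaip3*, chr10:19015361-19015660: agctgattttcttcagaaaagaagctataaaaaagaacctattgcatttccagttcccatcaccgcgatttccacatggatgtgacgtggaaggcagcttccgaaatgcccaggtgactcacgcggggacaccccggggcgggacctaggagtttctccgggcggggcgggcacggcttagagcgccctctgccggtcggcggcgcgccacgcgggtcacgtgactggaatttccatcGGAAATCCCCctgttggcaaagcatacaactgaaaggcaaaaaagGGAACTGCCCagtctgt
The *Nfkbia* window held 1 match and the *Tnfaip3* window 2, all on the strand opposite to the gene. This motif stood in 5.56% of all 32851 windows and in at least 1 window of 6.31% of genes. Of the immediate early genes higher in LPL ILC1s, 19 had a window and 4 held the motif (*Nfkbia*, *Nfkbid*, *Tnfaip3* and *Dusp5*), and of those higher in SG G1-ILCs, 5 had a window and 1 held it (*Mcl1*). A match describes the letters and is no measured site.

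Heat shock chaperones, which also respond to handling, did not lean to 1 group, with 6 of 20 higher in SG G1-ILCs and 6 in LPL ILC1s, or 3 in SG G1-ILCs by DESeq2, where all genes gave 22.0% and 20.2%. The inducible genes *Hspa1a* and *Dnajb1* stood at 1317 and 1099 and at 1738 and 1375 CPM in SG G1-ILCs and at 389.7, 692, 212 and 133 and at 498, 758, 347 and 303 in LPL ILC1s. *Hspa1b* stood at 2296 and 1937 CPM in SG G1-ILCs and at 803, 1638, 453 and 336 in LPL ILC1s, where replicate 2 was the highest for each of these 3 genes. The log2 fold changes of *Hspa1a*, *Dnajb1* and *Hspa1b* were 1.76, 1.71 and 1.39, the last 2.00 without LPL replicate 2, and by DESeq2 the calls of *Hspa1a* and *Hspa1b* were lost (adjusted p = 0.21 and 0.0535). *Hspa5*, the chaperone of the endoplasmic reticulum, was higher in LPL ILC1s, at 6944, 6943, 7349 and 7716 CPM against 1857 and 2120.3 (-1.86, SE 0.10, adjusted p = 2.68e-14 by edgeR).

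Interferon-stimulated genes and antigen presentation genes of class I leaned to LPL ILC1s. Of 37 tested interferon-stimulated genes, 14 were higher there and 7 in SG G1-ILCs, and of 18 class I genes 10 and 2, both against 20.2% and 22.0% of all genes. *Irf7*, a master regulator of interferon genes, stood at 739, 576, 419 and 507 CPM in LPL ILC1s and 156 and 153 in SG G1-ILCs, and the guanylate-binding protein gene *Gbp4* at 488, 620.3, 566 and 481 and 168 and 159. *Ifitm2*, an antiviral membrane protein, was 163, 185, 127 and 160.4 CPM against 1.68 and 0. *Isg20* and *Usp18* went the other way, by 1.92 and 2.13 on the log2 scale, the latter 3.06 without LPL replicate 1. *H2-D1*, a class I heavy chain, stood at 10064, 10609.7, 10397 and 11454 CPM in LPL ILC1s and 5611 and 5363 in SG G1-ILCs, while its light chain *B2m* was slightly higher in SG G1-ILCs (0.27, SE 0.07, adjusted p = 0.00488 by edgeR), a call lost without SG replicate 1 (adjusted p = 0.101 by edgeR).

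Metabolic genes were called in both directions, and the counts below stand beside 22.0% of all genes higher in SG G1-ILCs and 20.2% in LPL ILC1s. *Hk2*, the inducible hexokinase of glycolysis, stood at 377, 349, 299.5 and 378 CPM in LPL ILC1s and 15.1 and 24.4 in SG G1-ILCs (-4.14, SE 0.37, adjusted p = 1.15e-09 by edgeR). Of 29 tested genes of glycolysis and hypoxia, 11 were higher in LPL ILC1s, among them the hypoxia factor *Hif1a* (-1.58) and the glucose carrier *Slc2a3* (-1.45), and 6 in SG G1-ILCs, among them the glycolytic enzymes *Gpi1* (0.98) and *Tpi1* (0.82), and 3 genes were called higher in SG G1-ILCs without SG replicate 2. Of 29 lipid and sterol genes, 9 were higher in SG G1-ILCs and 6 in LPL ILC1s, and without SG replicate 2 the first number was 5. The desaturase gene *Scd2* stood at 63.7 and 76.3 CPM in SG G1-ILCs and 4.37, 5.93, 3.75 and 10.2 in LPL ILC1s, whereas *Sqle*, an enzyme of cholesterol synthesis, was higher in LPL ILC1s at 82.4, 70.0, 34.5 and 48.2 against 6.98 and 20.7 CPM. The log2 fold change of *Sqle* was -2.07, or -3.07 without SG replicate 2 and -1.50 without replicate 1, where its call was lost (adjusted p = 0.062 by edgeR). Oxidative phosphorylation genes passed in 12 of 68 cases toward LPL ILC1s and in 3 toward SG G1-ILCs, and without SG replicate 2 only 3 passed toward LPL ILC1s. Both counts lie under the shares of all genes, 20.2% and 22.0%.

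Ribosomal protein genes were higher in SG G1-ILCs in 41 of 69 cases and lower in 1, with a median log2 fold change of 0.39 beside 0.04 for all genes, and 21 were called higher without SG replicate 1. The share of all genes was 22.0%. Of 11 tested genes of the mitochondrial genome, 9 were higher in SG G1-ILCs. Few cell cycle genes were called, 5 of 34 toward LPL ILC1s and 1 toward SG G1-ILCs, the former 3 without either SG library or without LPL replicate 3. Of 12 tested genes of a list for the dioxin receptor AHR and retinoic acid, 5 were higher in LPL ILC1s and 3 in SG G1-ILCs, against 20.2% and 22.0% of all genes. The list holds receptor genes as well as targets. Those higher in SG G1-ILCs were *Tiparp* and the receptor genes *Rara* and *Rarg*, and those higher in LPL ILC1s included *Ahr*. *Ahrr*, a repressor that AHR induces, stood at 13.1, 19.8, 2.75 and 10.8 CPM in LPL ILC1s and 0.279 and 0 in SG G1-ILCs, where it had 1 count, and the retinoid reductase gene *Dhrs3* at 242, 229.7, 304 and 294 and 26.2 and 36.4.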

How the data were processed

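RNA from sorted cells was sequenced for 25 libraries of 8 groups, of which 2 SG G1-ILC and 4 LPL ILC1 libraries are compared here. The authors used fastp 0.23.0 for trimming, HISAT2 2.1.0 for alignment to mm10 (GRCm38) and featureCounts (Subread 1.6.5) for counting, and deposited raw counts per Ensembl gene without normalization. The annotation release and the settings for strand and for reads with several alignments are not given in the sources used here, so close copies and overlapping genes are uncertain. Of 46078 genes in the table, 849 identifiers matched no gene name and held 0.104% of the counts.

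Counts were tested with edgeR 4.0.16 (quasi-likelihood, TMM factors, R 4.3.3) in 1 fit of all 8 groups, and p-values were adjusted by the Benjamini-Hochberg method over all genes tested. The low-count filter was filterByExpr on the 6 libraries (minimum count 10). FL G1-ILC replicates 2 and 3 differed by about the sampling noise (chi-square per degree of freedom 1.18, against 3.51 to 12.4 in the other 28 pairs of replicates) and were summed as 1 sample, which left 24. CPM are counts scaled to the TMM-adjusted library total, and depth is given with the results. The study used DESeq2, and DESeq2 1.42.0 was an alternative here, as were other scaling, filters, samples, depth and thresholds. The code was tested on simulated counts.

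Genes named are the 15 in each direction with the largest log2 fold changes among those called, not overlapping and at a mean log2 CPM of at least 5, and, from gene lists, the members of largest change among those called, beside members that define the list. Others are said to be chosen after their values were seen. The groups and lists were chosen with earlier results of these data known. Counting intervals are exact 95% intervals, and the limit for a count of 0 is 3 counts over the group, both of which cover counting error only. Promoters came from RefSeq windows of GRCm38.p6, and the alignment of the Klra4 and Klra8 windows was made with Biopython 1.88.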

Additional observations from a re-analysis of the deposited data

Results flagged for a closer look

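Within the 4 LPL libraries, 232 genes and list sums were searched for 1 library far from the other 3, and 18 were found. Chance alone flags about 1 in 20 such groups, and the 2 SG libraries were too few to be searched. LPL replicate 3 stood apart in 6 of them. It was low in *Ccr9*, at 31.3 CPM against 61.0 to 64.2 in the other 3, in *Cxcr6*, at 1661 against 2777 to 2981, in *Furin*, at 287 against 499.7 to 531, and in *Irf2bpl*, at 13.0 against 27.7 to 30.05. Its chemokine receptor and gut homing list, which holds *Cxcr6*, summed to 4886 CPM against 6234 to 6419, and its *Klrb1c* was high, at 992 against 859 to 882.

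LPL replicate 4 was high in *Eomes*, at 111 CPM against 22.8 to 37.0, and in *Ski*, at 115 against 76.8 to 82.1. It was low in *Ctla4*, at 169 against 205 to 212, and in the summed glycolysis and hypoxia genes, at 5799 against 6114 to 6173. LPL replicate 2 was low in *1700017B05Rik*, at 24.8 CPM against 37.8 to 39.9, and high in *Cxcl16*, at 14.96 against 8.51 to 9.37. LPL replicate 1 was low in *Cd69*, at 1254 against 1498 to 1524. None of the genes of these paragraphs that were called against the gland lost the call without the library named, and without LPL replicate 4 the log2 fold change of *Eomes* was 2.68.

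The remaining 5 were genes near 0 in the gut, where 1 to 4 counts set a library apart. They were *Mucl2* at 1.16 CPM in LPL replicate 1, *Prol1* at 0 in LPL replicate 1, *S100a9* at 0 in LPL replicate 4, *Smr3a* at 0.276 in LPL replicate 4 and *Scgb1b27* at 0.282 in LPL replicate 2.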

How the results depend on the processing

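The number of genes called was 2647 higher in SG G1-ILCs and 2433 higher in LPL ILC1s. It changed by more than 1.5 times under 3 settings. Without the filter on low counts, 37565 genes were tested, 3056 were higher in SG G1-ILCs and 1594 in LPL ILC1s, so that 65.7% of the calls were higher in SG G1-ILCs against 52.1% with the filter, and the median log2 fold change was -0.72. On the 6 libraries alone, 1741 and 2100 were called, 45.3% of them higher in SG G1-ILCs, and with an absolute log2 fold change over 1, 1491 and 1248. Leaving out 1 library at a time gave 1800 to 2573 genes higher in SG G1-ILCs and 1734 to 2377 higher in LPL ILC1s, with the fewest when an SG library was left out. DESeq2 called 2398 and 2508, and the other scaling, filters, thinning, the 25 separate libraries and the adjusted p under 0.01 stayed within 1.5 times.

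With the replicate number as a block, 2535 genes were higher in SG G1-ILCs and 2290 in LPL ILC1s. Only the numbers 1 and 2 are shared, nothing says that they pair the samples, and the deviations of same-numbered SG and LPL libraries correlated at -0.05 and -0.04. Among the named genes whose calls were lost under the block were *Tnfsf8* (adjusted p = 0.0627 by edgeR) and *Smad4* (adjusted p = 0.112 by edgeR), and without the filter *Smad4* had 0.204.

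Of 177 named genes called, 154 kept their call and direction in each of the 15 refits that tested them, and 23 lost it in at least 1. A refit that did not test a gene, such as the stricter low-count filter for *Ahrr*, was not counted for it. Only genes that were not called changed sign. *Dusp1* moved to -0.0070 under the block, and without the filter *Epcam* moved to 0.042 and *Il21r* to 0.083. With 1 library left out at a time, *Epcam* ran from -0.31 to 0.024, *Il21r* from -0.21 to 0.047 and *Klra5* from -0.17 to 1.17. The cause of these changes was not tested. With 2 SG libraries, 1 of them with more secretory gland transcripts, the spread within the gland rests on a single pair.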

Other observations

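Some of the clearest differences lay in genes outside the lists, and those given here were chosen after their values were seen. *Matk*, which encodes a kinase that restrains Src-family kinases, stood at 280.1 and 231 CPM in SG G1-ILCs and at 3.20, 0.282, 0.5005 and 1.10 in LPL ILC1s, a log2 fold change of 7.66 (SE 0.52, adjusted p = 6.45e-12 by edgeR), or 8.62 without LPL replicate 1. *Ctla2a*, an inhibitor of cathepsins, had 2385 and 2352 CPM in SG G1-ILCs and 202, 304, 266 and 212 in LPL ILC1s (3.27 on the log2 scale). *Ctsd*, a lysosomal protease that macrophages also express, had 2625 and 2324 and 645, 639, 663 and 597 (1.96). In the opposite direction, *Tcrg-C4*, a constant gene of the T cell receptor gamma chain that group 1 ILCs can transcribe without a rearranged receptor, stood at 303, 298, 359 and 269 CPM in LPL ILC1s and 19.8 and 6.48 in SG G1-ILCs (-4.57, or -5.56 without SG replicate 1 and -3.95 without replicate 2), and its reads may be shared with the other gamma constant genes. *Gm10800*, a predicted gene, took 27312, 14991, 13839 and 23764 CPM in LPL ILC1s and 4786 and 5390.3 in SG G1-ILCs.

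Secretoglobin genes of the gland added to the salivary transcripts. *Scgb1b27* stood at 407 and 238 CPM in SG G1-ILCs and had 1 count over the 4 LPL libraries, *Scgb2b26* stood at 221 and 96.5 and 0.291, 0.282, 0 and 0.827 CPM, and *Scgb2b27* at 278 and 157 and 1.16, 0.282, 0.5005 and 0.276. In each of the 3, SG replicate 1 was the higher of the SG libraries, as for the salivary epithelium list.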
